A study of Homo sapiens with 6 samples.

Results

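This report concerns 10 genes for enzymes that build or fix the collagen matrix, out of 16934 genes counted in A375 cells. They are peroxidasin (PXDN), the 5 lysyl oxidases (LOX, LOXL1, LOXL2, LOXL3 and LOXL4), 2 catalytic subunits of collagen prolyl 4-hydroxylase (P4HA1 and P4HA2) and 2 lysyl hydroxylases (PLOD1 and PLOD2). All 10 symbols matched 1 row each of the count table, and 9 passed the filter on low counts. LOXL1 did not pass, and PXDN passed through its control libraries alone. The set was chosen by these counts themselves, with the difference between the groups already known, and PXDN had the lowest log2 fold change of the 13930 genes tested. The differences of the 10 genes between the groups are therefore given as descriptions, with no p-value.

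Collagen chains are modified inside the endoplasmic reticulum before they leave the cell. Prolyl 4-hydroxylases hydroxylate proline, which stabilises the triple helix, and lysyl hydroxylases hydroxylate lysine, which prepares residues for crosslinks and for added sugars. Outside the cell, lysyl oxidases are copper enzymes that oxidise lysine in collagen and elastin so that the fibres become covalently crosslinked. Peroxidasin is a haem peroxidase that forms sulfilimine bonds between collagen IV molecules of basement membranes. In solid tumours, lysyl oxidases and collagen hydroxylases are known for their part in matrix stiffening and invasion.

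A375 is an established human melanoma line that depends on mutant BRAF. Both groups went through knockout with Alt-R CRISPR-Cas9 and grew in DMEM with serum, glutamine and antibiotics. They differed in the sgRNA, a non-targeting control in 1 group and a guide against POLK, the gene for DNA polymerase kappa, in the other, and no further agent is named. Each group held 3 RNA-seq libraries, and nothing in the labels says that these were separate cultures or separately edited populations, so the spread between libraries may be technical. If each group is 1 edited population, population differences and an effect of the POLK sgRNA cannot be told apart.

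Total counts lay between 42852645 and 56891905 per library. POLK was lower with its own sgRNA, at 23.43, 24.03 and 22.36 CPM (counts scaled to 1000000 per library) in the control libraries and 19.17, 17.16 and 18.15 CPM in the POLK sgRNA libraries (log2 fold change −0.36, SE 0.05). The melanoma lineage factor SOX10 stood at 1060 and 1155 CPM and MITF at 28.3 and 32.9 CPM, while the pigment gene TYR was at 0.443 CPM in control library 1 and at 0 in the other 5 libraries. The pigment gene DCT was at 1.49 CPM in control library 1 and between 0.0208 and 0.263 CPM in the other 5. Of 11 tested melanoma markers 7 were called higher and 2 lower, where 32.8% and 31.6% of all tested genes were. The 2 lower were MCAM (390 and 365 CPM) and PRAME (214 and 199 CPM). Markers of other cell types were summed per library. The 10 fibroblast markers, which include COL1A1, COL1A2 and COL3A1, summed to 20.5 to 20.7 CPM per control library and to 30.3 to 30.4 CPM per POLK sgRNA library, and 4 of them stayed under 1 CPM throughout. The ranges were 3.61 to 4.48 and 6.55 to 6.95 CPM for 8 endothelial markers, of which 6 stayed under 1 CPM. They were 117 to 120 and 183 to 189 CPM for 8 epithelial markers, of which 3 stayed under 1 CPM. For the 7 leukocyte markers in the table they were 17.9 to 18.2 and 58.3 to 60.6 CPM, and 5 of the 7 stayed under 1 CPM. No marker of these 4 lists was at 0 in every library. All 4 sums were higher with the POLK sgRNA, through a few genes each (LUM and PDGFRB for fibroblasts, KDR for endothelium, KRT18 and CLDN4 for epithelium, CD68 and LYZ for leukocytes). Other tested markers were lower, among them PDGFRA (log2 fold change −0.79), COL1A2 (−1.06), CDH5 (−3.35), CLDN5 (−1.06) and CD14 (−1.91). Of the tested markers, 3 of 6 for fibroblasts, 5 of 7 for endothelium, 4 of 7 for epithelium and 2 of 4 for leukocytes were called higher, and 2, 2, 0 and 1 lower. Of all tested genes 32.8% were called higher and 31.6% lower. Among these markers, DCN, TEK and TIE1 passed the filter only with the POLK sgRNA libraries, where they were higher. COL1A2, CDH5, CLDN5 and CD14 passed it only with the control libraries, so nothing is read from these counts. The markers' part in the results below was not tested.

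Short stretches before the start sites are shown for the gene that differed most and for 3 genes known as targets of hypoxia-inducible factor (HIF) that held a match. HIF binds the letters ACGTG or GCGTG. Both words were searched on both strands in the 250 bases before each RefSeq start (GRCh38.p14), and 9 of the 10 genes had an entry. LOXL2 had none and was not searched. Each line gives 30 bases, 5′ to 3′ on the gene's own strand, with the matches in capitals (CACGT is ACGTG read on the other strand).
PXDN, chr2:1744521-1744550, minus strand: cgcacagctgggACGTGggccgcggccggg
P4HA1, chr10:73096935-73096964, minus strand: tgtgatcgagctCACGTagcgagggctgca
PLOD2, chr3:146161313-146161342, minus strand: caaacagtccagACGTGgggcccaggaggg
PLOD2, chr3:146161380-146161409, minus strand: gccagaagcgctGCGTGagcctccaCACGT
LOX, chr5:122078427-122078456, minus strand: gctccctgtgcaACGTGtctggggggagga
Of these 5 stretches, the one before P4HA1 touches an exon of its gene in GENCODE 29, and the others lie outside the exons of theirs. Those of PXDN and PLOD2 still lie within the GENCODE span of the gene. The stretches around the other matches at the same start of LOX, not shown, do touch an exon of LOX. PLOD2 held 3 matches and the first RefSeq start of LOX held 4, all of them ACGTG. The further RefSeq starts of LOX, whose windows overlap each other, held 2 matches each. Of all 34943 promoter windows of this length, 18.5% held ACGTG, 32.2% held GCGTG, 43.2% held either and 19.3% held 2 or more matches. Among the other genes with an entry PLOD1 held 2 matches and LOXL3 held 1 at 1 of its RefSeq starts, and LOXL1, LOXL4 and P4HA2, also a known HIF target, held none. A match is a description of the letters and not a site of binding.

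PXDN (ENSG00000130508, chromosome 2, 1631887 to 1744852, minus strand, GRCh38) was nearly lost in the POLK sgRNA libraries. It had 2483, 3147 and 2966 counts in control libraries 1, 2 and 3 and 4, 5 and 7 counts in POLK sgRNA libraries 1, 2 and 3. Scaled to depth these were 58.0, 57.6 and 61.8 CPM against 0.0700, 0.107 and 0.143 CPM. All 3 control libraries lay close together at a moderate level, and all 3 POLK sgRNA libraries lay near 0. The mean was 59.1 ± 2.30 CPM (SD, n = 3) against 0.107 ± 0.036 CPM, which is 0.180% of control and 555-fold lower. The fitted log2 fold change was −9.11, and it lay between −9.37 and −8.85 on leaving out 1 library at a time. With 16 counts in the POLK sgRNA libraries together, the SE derived here is too small for PXDN and is not given. In these bulk samples, fewer cells with PXDN and less PXDN RNA per cell cannot be told apart.

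No other haem peroxidase gene in the table reached the control level of PXDN. PXDNL, the closest relative of PXDN, had 0.105 ± 0.028 CPM in control and 0.298 ± 0.046 CPM with the POLK sgRNA (n = 3 each), a log2 fold change of 1.52 (SE 0.41). It was named after its values were seen and is too low in control to have passed the filter without the POLK sgRNA libraries, so no test is given for it. The prostaglandin synthase gene PTGS1 rose from 3.62 ± 0.68 to 5.05 ± 0.28 CPM. Of the 7 such genes in the table, 5 were tested and 4 were called higher, where 32.8% of all tested genes were, and the median of the 5 on the log2 scale was 0.57. The calls include PXDNL and EPX, which passed the filter only with the POLK sgRNA libraries, where they were higher. Nothing is therefore read from this count. With genes under a mean of 1 CPM dropped 1 call was left, with DESeq2 there were 2, and without any 1 library there were 3.

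**Figure D1:**
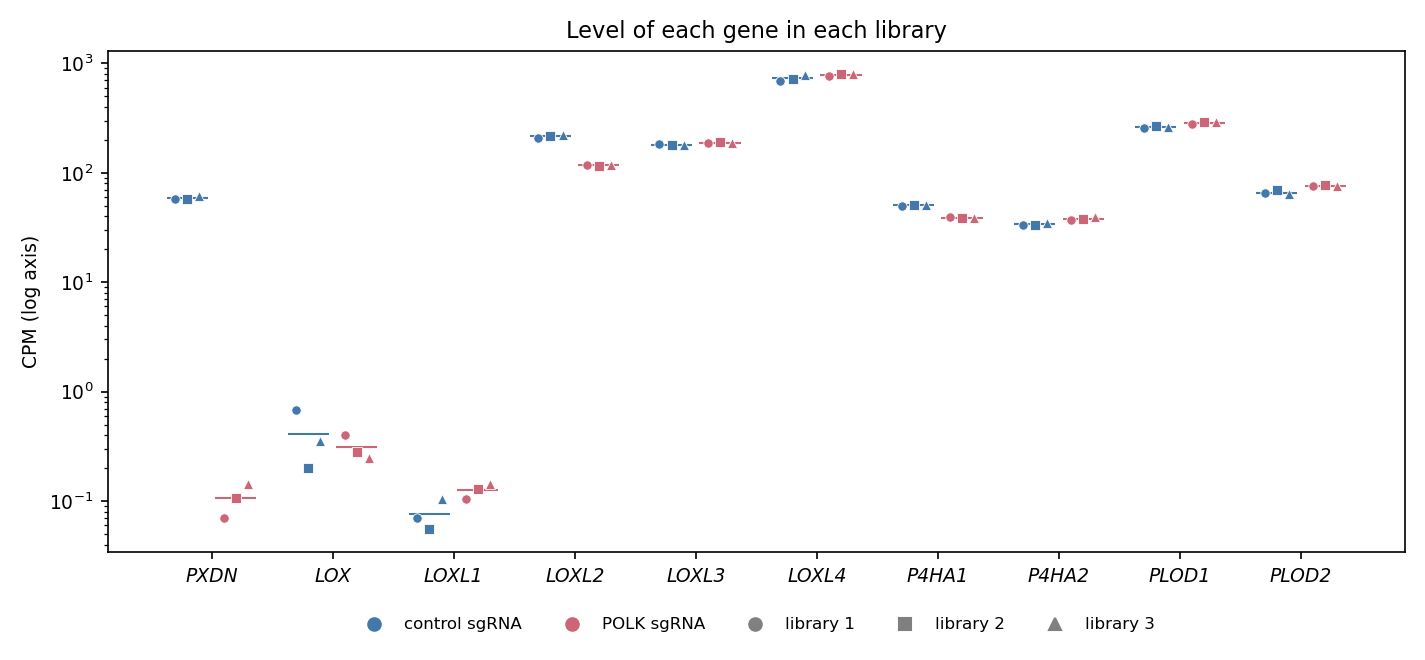
Level of the 10 genes in each library, in CPM on a log axis. Points are single libraries (circle, square and triangle for libraries 1, 2 and 3) and lines are group means. PXDN dropped from 59.1 to 0.107 CPM, LOXL2 and P4HA1 were lower with the POLK sgRNA, and LOX and LOXL1 stayed under 1 CPM in every library.

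The lysyl oxidases differed from each other in direction and size. LOXL2, which oxidises collagen IV and other matrix proteins, had 207, 218 and 221 CPM in the control libraries and 118, 116 and 119 CPM in the POLK sgRNA libraries. All 3 POLK sgRNA libraries lay below all control libraries, and they spread less. The level was 54.5% of control (216 ± 7.34 against 117 ± 1.40 CPM, SD, n = 3), with a log2 fold change of −0.88 (SE 0.03).

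LOXL4, the most abundant lysyl oxidase here, had 691, 718 and 784 CPM in control and 768, 798 and 808 CPM with the POLK sgRNA. Control library 3 lay above POLK sgRNA library 1, so the groups overlapped. The mean was 108% of control, with a log2 fold change of 0.11 (SE 0.05), and 0.16 without control library 3. LOXL3, a lysyl oxidase with roles in craniofacial matrix, had 183, 178 and 181 CPM in control and 186, 191 and 188 CPM with the POLK sgRNA. The groups did not overlap, yet the means differed by only 4.33% (log2 fold change 0.06, SE 0.02). LOXL3 shares 14.3% of its exon bases with HTRA2 and 4.95% with DOK1 on the opposite strand, and the library kit does not mark strand, so its value is uncertain. HTRA2 stood at 38.2 and 38.1 CPM and DOK1 at 25.4 and 32.6 CPM in control and POLK sgRNA libraries.

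LOX, the founding member of the family, was close to undetected. It had 29, 11 and 17 counts in the control libraries and 23, 13 and 12 counts in the POLK sgRNA libraries. Control library 1 was highest and control library 2 lowest of all 6 libraries (0.677 and 0.201 CPM), so the spread of the control group covered every POLK sgRNA library. The log2 fold change was −0.32 (SE 0.36), and it turned to 0.19 without control library 1. The difference in LOX was smaller than the spread between control libraries. LOX shares 2.49% of its exon bases with SRFBP1 on the opposite strand, which stood at 19.7 and 18.6 CPM in control and POLK sgRNA libraries. What reads of SRFBP1 add to the few counts of LOX was not tested. LOXL1, needed for elastic fibres, had 3, 3 and 5 counts in control and 6, 6 and 7 counts with the POLK sgRNA, too few to be tested.

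The 2 prolyl hydroxylase subunits moved apart. P4HA1 had 50.2, 50.7 and 50.4 CPM in the control libraries and 39.2, 38.9 and 38.3 CPM in the POLK sgRNA libraries. The libraries of each group lay within a narrow range, and the groups did not overlap. The level was 76.9% of control (50.4 ± 0.27 against 38.8 ± 0.49 CPM, SD, n = 3; log2 fold change −0.38, SE 0.03). P4HA2 had 33.2, 33.4 and 34.5 CPM in control and 36.7, 37.9 and 39.4 CPM with the POLK sgRNA. Each POLK sgRNA library lay above each control library, at a mean of 113% of control (log2 fold change 0.17, SE 0.04). P4HA2 shares 6.45% of its exon bases with the antisense gene P4HA2-AS1, whose reads cannot be told apart from its own there. The same holds for 9.21% of the exon bases of LOXL1, 4.16% of LOXL4, 3.12% of LOXL2 and 1.52% of P4HA1. LOXL2 also shares 2.10% with a gene on its own strand.

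Both lysyl hydroxylases were slightly higher with the POLK sgRNA. PLOD2, which hydroxylates the ends of collagen chains, had 65.2, 68.9 and 63.4 CPM in control and 76.5, 76.7 and 76.1 CPM with the POLK sgRNA. The POLK sgRNA libraries lay within 1 CPM of each other and above the highest control value. The mean was 116% of control (log2 fold change 0.21, SE 0.03). PLOD1, which hydroxylates lysine in the helix, had 259, 266 and 260 CPM in control and 280, 290 and 292 CPM with the POLK sgRNA, 110% of control (log2 fold change 0.13, SE 0.02). Its groups did not overlap either.

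**Figure D2:**
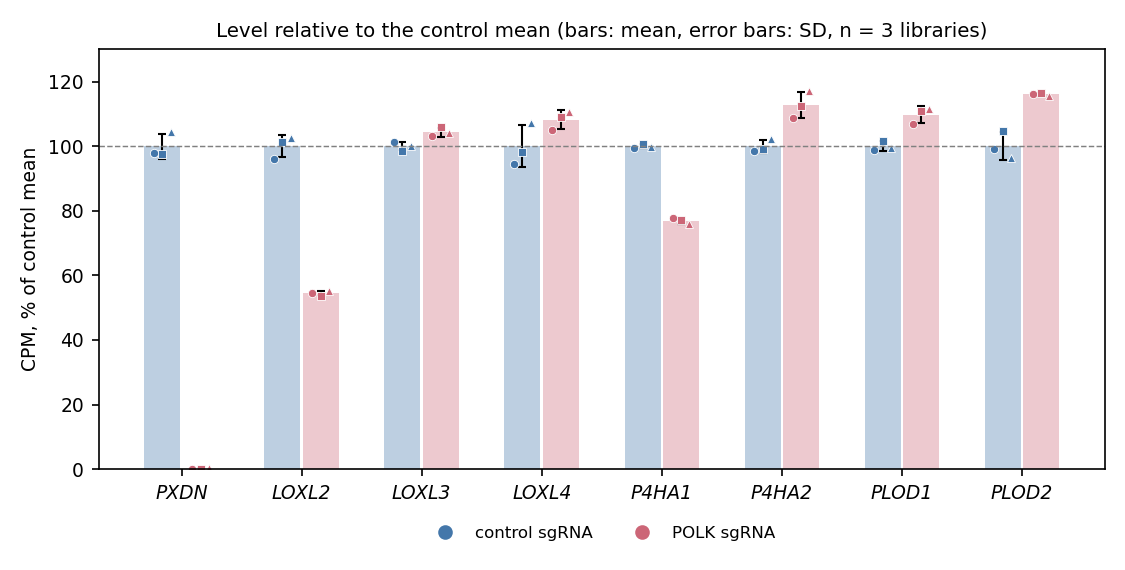
Level of the 8 genes above 1 CPM in control libraries, as a percentage of the control mean. Bars are means, error bars are SD over 3 libraries and points are single libraries. PXDN (0.180%), LOXL2 (54.5%) and P4HA1 (76.9%) lie below control, and the other 5 genes lie between 104% and 116%.

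By the quasi-likelihood test of edgeR at an adjusted p under 0.05, 3 of the 9 tested genes were lower (PXDN, LOXL2 and P4HA1) and 4 were higher (LOXL3, P4HA2, PLOD1 and PLOD2). Over all 13930 genes tested, 64.3% were called, 31.6% lower and 32.8% higher. The libraries of the groups did not overlap in the same 7 of the 9 genes, and in 67.7% of all tested genes (34.6% higher and 33.1% lower). Tested against a minimum fold of 1.5, PXDN and LOXL2 were called lower, where 9.25% of all genes were called, 3.86% lower and 5.38% higher. The median log2 fold change of the 9 genes was 0.06, and that of all tested genes was 0.01. LOXL3 lost its call with DESeq2 and on leaving out control library 2, control library 3 or POLK sgRNA library 2, and LOXL4 gained one on leaving out control library 3. Since this contrast chose the genes, nothing is read from these counts.

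Compared per length of merged exons (RPKM, the CPM divided by the exon length in kilobases), the 10 genes covered a wide range of levels. In control libraries LOXL4 was highest at 200.1 ± 13.1 RPKM, followed by PLOD1 at 49.2 ± 0.74, LOXL3 at 41.3 ± 0.55, LOXL2 at 37.8 ± 1.29 and P4HA1 at 16.3 ± 0.09 RPKM. PLOD2 at 8.61 ± 0.37, PXDN at 5.25 ± 0.20 and P4HA2 at 3.96 ± 0.08 RPKM came next, and LOX and LOXL1 were under 0.1 RPKM. No 2 neighbours in this order overlapped between libraries. With the POLK sgRNA the first 6 places were the same, PXDN went from the 7th to the 10th place at 0.00947 ± 0.00324 RPKM, and again no neighbours overlapped. The order depends on the length used. Over the longest principal transcript in place of merged exons, a choice made after seeing the data, LOXL2 lay above LOXL3 in control (60.7 against 51.5 RPKM) and below it with the POLK sgRNA (33.1 against 53.7 RPKM), P4HA2 lay above PXDN in control (10.1 against 8.68 RPKM), and PLOD2 lay above P4HA1 with the POLK sgRNA (20.5 against 13.6 RPKM), so the first 6 places were then not the same in both groups.

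The share of LOXL2 among the lysyl oxidases was lower with the POLK sgRNA, while the summed level of the family overlapped between the groups. The 5 genes summed to 268, 276 and 295 RPKM in the control libraries and 274, 283 and 285 RPKM in the POLK sgRNA libraries. These ranges overlapped, and the means of 279 ± 14.1 and 280.4 ± 5.94 RPKM differed by less than the spread between libraries. Over principal transcripts they were 312 ± 14.7 and 304 ± 6.02 RPKM, the other way round and again within the spread. LOXL2 made up 13.6, 13.9 and 13.1% of that sum in control and 7.54, 7.19 and 7.30% with the POLK sgRNA. LOXL4 went from 71.6 ± 1.06% to 77.2 ± 0.38%, and LOXL3 stood at 14.8 ± 0.81% and 15.4 ± 0.27%. Among the 2 prolyl hydroxylase subunits the sum was 20.3 ± 0.12 RPKM in control and 17.01 ± 0.01 RPKM with the POLK sgRNA, and the share of P4HA2 went from 19.6 ± 0.32% to 26.3 ± 0.95%. Over principal transcripts that share was 36.2 ± 0.48% and 45.4 ± 1.21%. The 2 lysyl hydroxylases summed to 57.8 ± 1.07 and 64.0 ± 1.23 RPKM, with PLOD2 at 14.9 ± 0.40% and 15.6 ± 0.33%, and the highest control share, 15.3%, lay next to the lowest one with the POLK sgRNA, also 15.3%.

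**Figure D3:**
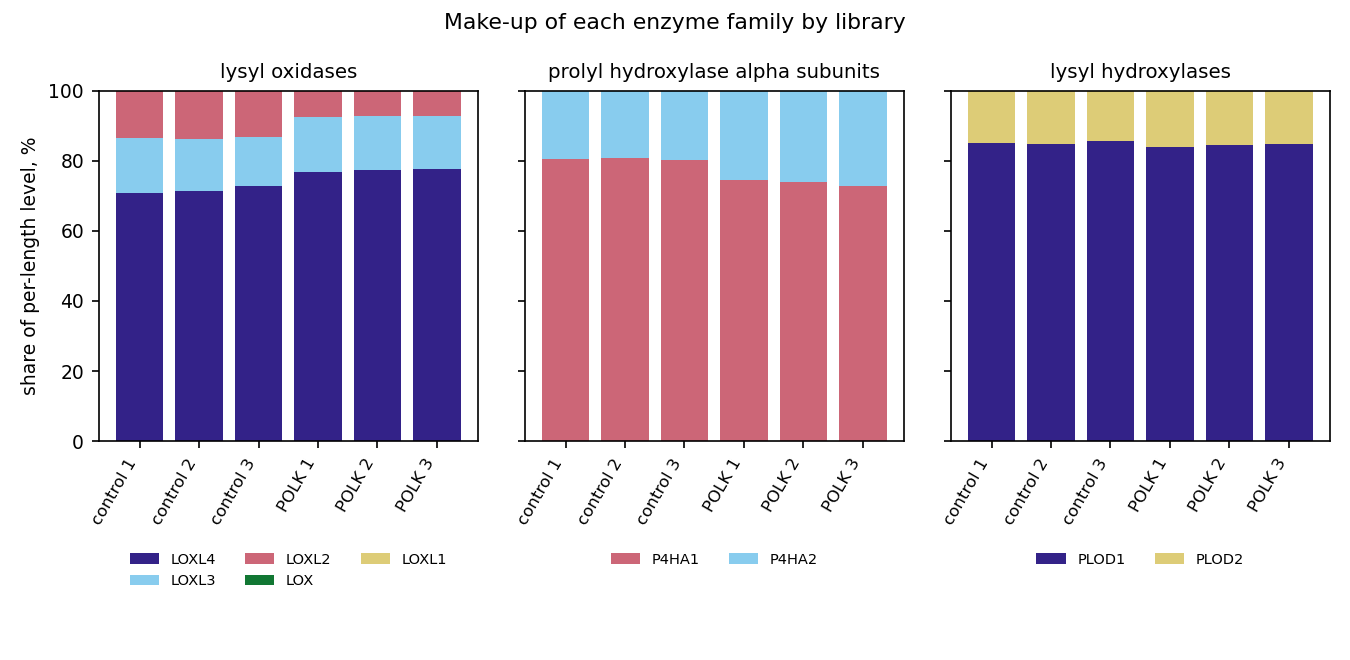
Share of each gene in the summed per-length level of its enzyme family, in percent, for each of the 6 libraries. Bars are single libraries and colours are genes. LOXL2 takes 13.1 to 13.9% of the lysyl oxidases in control libraries and 7.19 to 7.54% with the POLK sgRNA, and LOX and LOXL1 are too low to be seen.

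PXDN lies near the end of the short arm of chromosome 2, and the tested genes around it were lower too, by far less. Its nearest tested genes were TMEM18, 954 kb away, with 24.8 ± 0.82 and 22.9 ± 0.84 CPM, and EIPR1, 1444 kb away, with 55.3 ± 0.40 and 51.1 ± 1.06 CPM (log2 fold changes −0.11 and −0.12). TMEM18 lost its call without control library 1 (adjusted p = 0.098 by edgeR), without POLK sgRNA library 2 (0.15), with library size alone (0.058) and with DESeq2 (0.054). Next in line, ACP1 and TRAPPC12 fell by 0.23 each on the log2 scale. The neural factor gene MYT1L, which lies between PXDN and EIPR1, averaged 0.00694 CPM in control and 0.121 CPM with the POLK sgRNA, too low to be tested. Of the 13 tested genes within 10 places of PXDN, 10 were called lower and 1 higher, where 31.6% and 32.8% of all tested genes were, with a median log2 fold change of −0.23 and a lowest value of −0.98, in SOX11.

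LOXL2 also lay lower than its surroundings, and P4HA1 lay below all but 1 of its neighbours. LOXL2 on chromosome 8 lay below each of its 20 nearest tested genes, whose median log2 fold change was −0.04 and whose lowest value was −0.67, in EGR3. P4HA1 on chromosome 10 lay at −0.38, while its 20 neighbours had a median of 0.08 and only VSIR, at −0.46, lay below it. For PLOD2 on chromosome 3 the median of the 20 neighbours, 0.22, was close to its own 0.21, and 13 of them were called higher and 3 lower, against the same 32.8% and 31.6% of all tested genes. That median depended on the window, at 0.0469 with 5 tested genes on each side and 0.14 with 20 on each side. With 10 on each side, the medians around the other 6 genes lay between −0.03 and 0.08. Single neighbours of these differed far more, down to −7.32 near P4HA2 and −3.11 near LOXL1 and up to 2.49 near PLOD1.

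**Figure D4:**
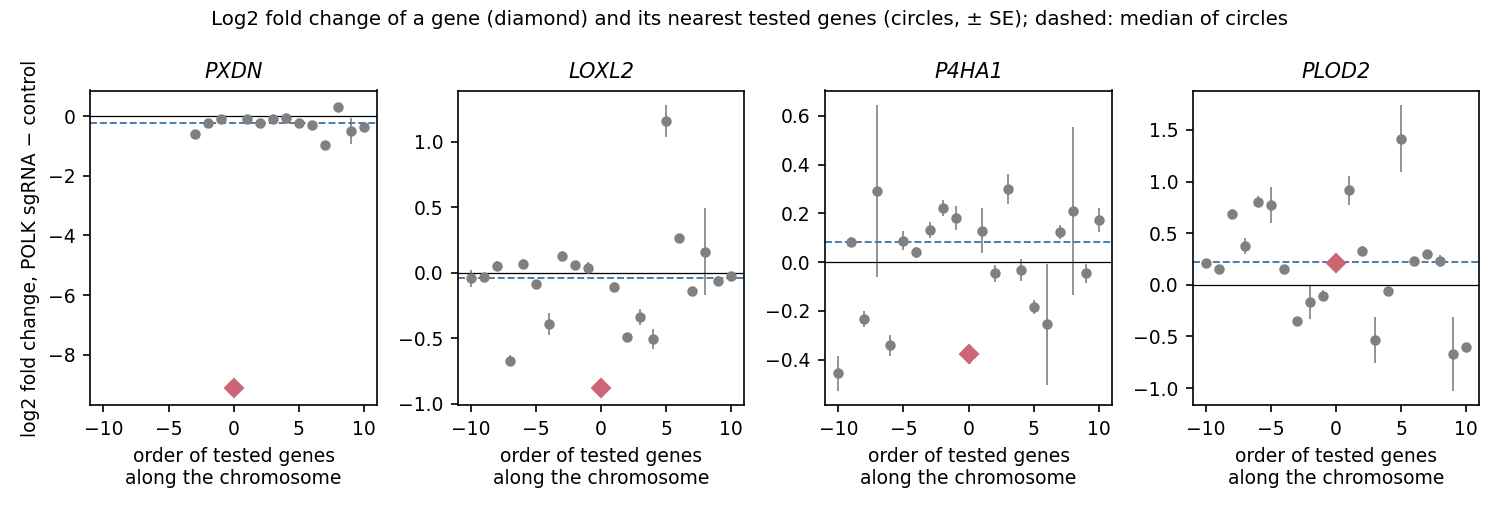
Log2 fold change (POLK sgRNA minus control) of PXDN, LOXL2, P4HA1 and PLOD2 (diamonds) and of up to 20 nearest tested genes of each (circles, with SE), in their order along the chromosome. Each panel has its own vertical axis, and the dashed line is the median of the circles. PXDN at −9.11 and LOXL2 at −0.88 lie below all of their neighbours, and PLOD2 lies close to the median of the genes shown around it.

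The genes whose pattern over the 6 libraries was most like that of PXDN were COCH, XYLT1, NXN, PCSK1N and KIAA1644. Likeness was the root mean square difference of log2(CPM + 0.5), centred on the control mean, among 9337 genes with at least 10 CPM in control. This measure includes the difference between the groups that chose PXDN, so nothing is read from the likeness. COCH, which encodes a matrix protein of the inner ear, was nearest at 1.54, and fell from 11.5 ± 0.47 to 0.0544 ± 0.0332 CPM. XYLT1, the enzyme that starts the sugar chains of proteoglycans, was next at 1.99, with 60.3 ± 1.42 CPM in control and 3.84 ± 0.27 CPM with the POLK sgRNA. NXN, PCSK1N and KIAA1644 followed at 2.41, 2.45 and 2.51. Against PXDN at −6.62 on this scale, COCH averaged −4.44 with the POLK sgRNA and XYLT1 −3.81, a scale that understates the difference of low genes.

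The other enzymes and chaperones that handle collagen in the endoplasmic reticulum differed by less than PXDN or LOXL2. Of 17, all tested, 4 rose and 6 fell (58.8% called, against 64.3% of all tested genes, median 0.03), and none passed against a minimum fold of 1.5 in edgeR's glmTreat (0 at an unadjusted p under 0.05). SERPINH1, the collagen chaperone HSP47, rose from 165 ± 3.24 to 236 ± 4.31 CPM (log2 fold change 0.51, SE 0.02). CRTAP, a partner of prolyl 3-hydroxylation, stood at 274 ± 2.93 CPM in control and rose to 345 ± 1.82 CPM. P3H4 rose by 0.21 on the log2 scale (76.7 ± 0.50 and 88.8 ± 3.10 CPM). The prolyl 3-hydroxylase gene P3H2 fell from 4.23 ± 0.31 to 2.81 ± 0.35 CPM, KDELR2, a receptor that returns chaperones to the endoplasmic reticulum, from 171 ± 3.36 to 133 ± 1.09 CPM and FKBP14, a prolyl isomerase gene, from 27.6 ± 0.62 to 21.6 ± 0.48 CPM. P4HB, the partner of both P4HA subunits, fell by 0.08 on the log2 scale, and PLOD3 rose by 0.10.

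Genes that process collagen or help lysyl oxidases mature moved both ways. Of 13 tested, 5 rose and 5 fell (76.9% called, against 64.3% of all tested genes, median −0.18). TLL1, among those that rose, passed the filter only with the POLK sgRNA libraries. FN1, which encodes fibronectin, a scaffold for LOX activation, fell from 165, 175 and 188 CPM in control to 39.8, 42.2 and 37.8 CPM (log2 fold change −2.14, SE 0.06). EFEMP2, which brings LOX to elastic fibres, fell from 7.84 ± 0.61 to 5.63 ± 0.46 CPM. The copper pump gene ATP7A, which loads lysyl oxidases with their metal, fell from 21.5 ± 0.32 to 18.21 ± 1.098 CPM, and its copper donor ATOX1 rose from 60.5 ± 0.91 to 81.8 ± 1.95 CPM. TGM2, a transglutaminase that crosslinks matrix proteins, rose from 46.6 ± 0.32 to 93.9 ± 2.62 CPM, and PCOLCE2, a procollagen processing enhancer gene near PLOD2, from 13.3 ± 0.76 to 23.3 ± 0.50 CPM.

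The substrates of these enzymes also moved both ways. Of 21 tested basement membrane genes, 10 rose and 6 fell (76.2% called, against 64.3% of all tested genes, median 0.12). COL4A1 and COL4A2, the main collagen IV chains that peroxidasin crosslinks, fell to 386 ± 10.1 CPM from 592 ± 11.9 CPM (log2 fold change −0.62) and to 918 ± 16.5 CPM from 1279 ± 25.0 CPM (−0.48). NID1, which links laminin to collagen IV, rose from 179 ± 5.35 to 428 ± 11.5 CPM, COL4A6 from 0.678 ± 0.161 to 1.99 ± 0.11 CPM and LAMA3 from 0.681 ± 0.087 to 2.44 ± 0.14 CPM. Of 12 tested fibrillar collagen and elastic fibre genes, 6 rose and 3 fell (75% called, against the same 64.3%, median 0.19). COL1A2, among those that fell, passed the filter only with the control libraries. COL5A1 rose from 36.7 ± 0.98 to 86.1 ± 2.35 CPM, COL11A2 from 3.405 ± 0.136 to 11.9 ± 0.11 CPM and COL2A1 from 2.38 ± 0.24 to 3.43 ± 0.23 CPM. COL27A1 fell from 44.6 ± 2.31 to 26.9 ± 0.07 CPM and FBN1, a fibrillin gene, from 58.0 ± 2.87 to 46.2 ± 1.17 CPM. Beside these collagen genes, the summed fibroblast markers were higher in the POLK sgRNA libraries through LUM and PDGFRB, while PDGFRA and COL1A2 were lower. COL3A1 lay under 0.1 CPM on average in both groups, and the markers' part in these values was not tested.

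**Figure D5:**
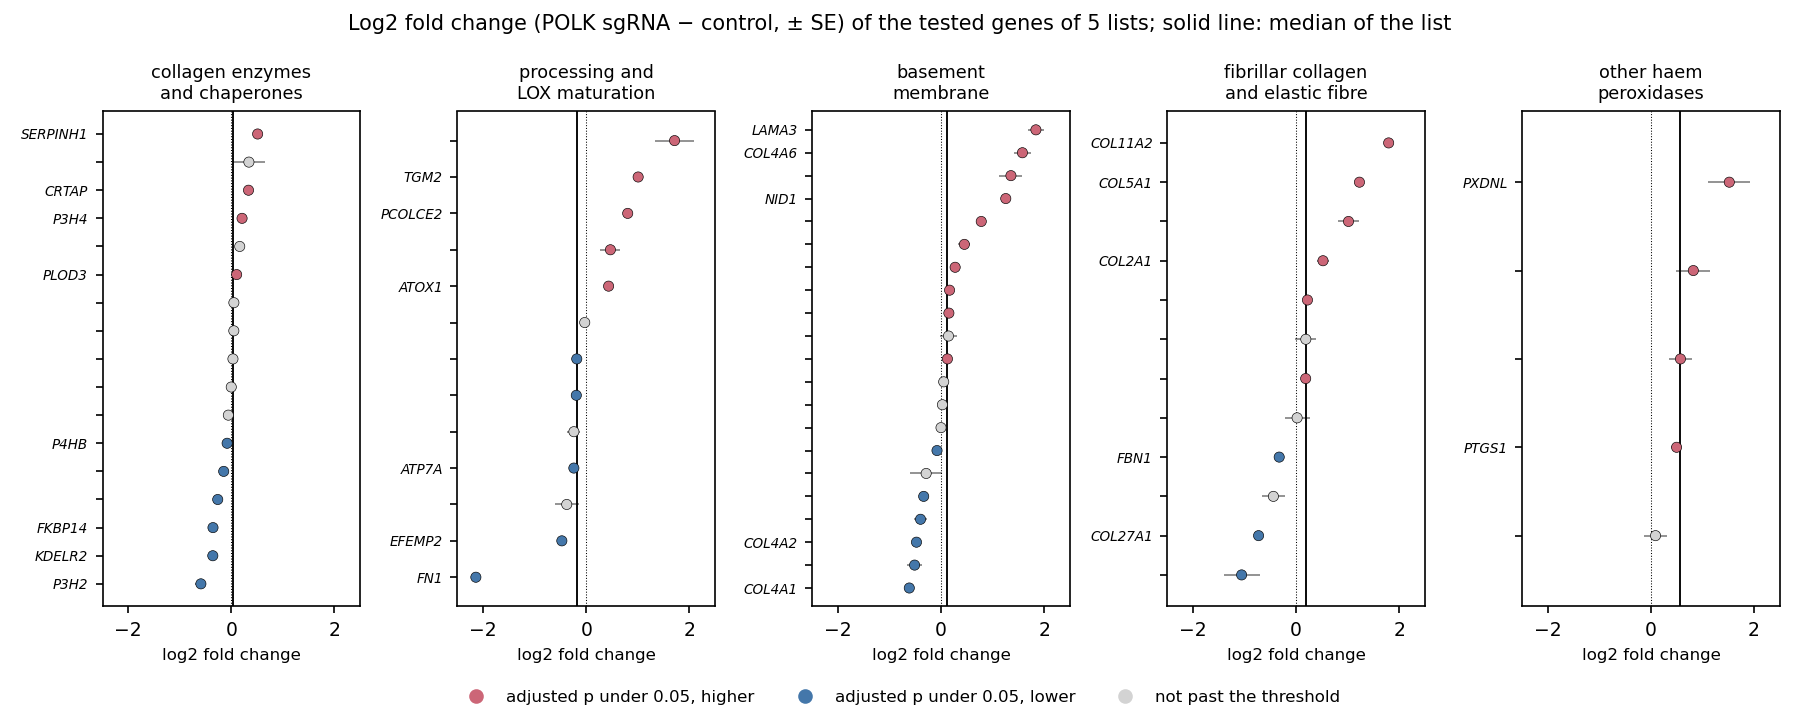
Log2 fold change (POLK sgRNA minus control, with SE) of the tested genes of 5 lists around collagen maturation, 1 row per gene. Red and blue points passed an adjusted p of 0.05 as higher and lower, grey points did not, gene names mark the genes described in the text, and the solid line is the median of the list. FN1 at −2.14 is the lowest point, and the medians lie between −0.18 and 0.57. PXDNL is coloured by its adjusted p, though no test is given for it.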

How the data were processed

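The authors deposited raw counts per gene, 1 column per library, with Ensembl identifiers and symbols. The submitters' processing notes name the build GRCh38 and the tools STAR, Trimmomatic, FastQC and DESeq2. For versions, counting tool and strand setting: not given in the sources used here. Columns were matched to samples by name.

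Low counts were removed by filterByExpr (at least 10 counts, total of 15), libraries were scaled by TMM and groups compared with the quasi-likelihood test of edgeR 4.0.16 (R 4.3.3, robust and two-sided, without covariates). P-values were adjusted by Benjamini-Hochberg over 13930 genes. The SE was derived from the log2 fold change and its F, and it understates the uncertainty where a group has few counts, as for PXDN. CPM is counts per 1000000, on TMM-scaled sizes of tested genes. Lengths and positions came from GENCODE 29. In counts simulated for this comparison (13930 genes), 44% of genes changed 1.1-fold and 92% of those changed 1.25-fold were recovered.

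The members and lists were chosen with earlier results of these data known. Named are all members and POLK, in each list up to 3 called genes per direction with the largest change, a mean of 1 CPM and no overlap, the 2 tested genes nearest PXDN on each side, and its 5 most similar genes. A result under this rule is not reported here. PXDNL, EPX, TLL1, P4HB, PLOD3, P4HA3, SOX11, EGR3, VSIR, MYT1L and COL3A1 were named outside that rule, after their values were seen. So were the overlapping genes HTRA2, DOK1 and SRFBP1 and the cell type markers. Alternatives were DESeq2 1.42.0 and its size factors, library size alone, other filters, the replicate number as a block, each library left out and a minimum fold of 1.5. The length of the longest principal transcript was added after seeing the data.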

Additional observations from a re-analysis of the deposited data

How the results depend on the processing

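The log2 fold changes of the 8 members above 1 CPM kept their sign under every alternative run, and that of LOX did so except without control library 1. The count of called members was 6 with DESeq2, where LOXL3 lost its call, and 8 with the replicate number as a block, where LOXL4 gained one. On leaving out 1 library at a time it ranged from 6 to 7, and LOXL3 lost its call without control library 2 or 3 or POLK sgRNA library 2. LOXL4 passed without control library 3. Libraries of the 2 groups share only a replicate number, with correlations of deviations of −0.0364, −0.00682 and −0.0419 between libraries of the same number, and the block moved the count over all genes from 8962 to 8773. Against a minimum fold of 1.5, calls dropped to 1288 of all genes, 2 of the members, 0 of the collagen enzymes and chaperones (0 at an unadjusted p under 0.05), 4 of the processing genes, 5 of the basement membrane genes, 4 of the fibrillar and elastic genes and 1 of the haem peroxidases, and POLK at −0.36 did not pass. The haem peroxidase counted against the minimum fold was PXDNL, and TLL1 was among the processing genes counted. Both are too low in control to pass the filter there, so nothing is read from these 2 calls. Of the haem peroxidases, 1 passed at a mean of at least 1 CPM and 2 with DESeq2. With 5 neighbours on each side the median log2 fold change was −0.17 around PXDN, 0.0810 around LOX, −0.40 around LOXL1, −0.10 around LOXL2, 0.00498 around LOXL3, −0.0135 around LOXL4, 0.16 around PLOD1 and 0.0469 around PLOD2. With 20 it was −0.0556 around LOX, −0.0813 around LOXL3, −0.00616 around LOXL4, 0.00402 around P4HA1, −0.0198 around P4HA2, 0.00818 around PLOD1 and 0.14 around PLOD2. The cause of these moves was not tested. LOX and LOXL1 stayed under 1 CPM in every library.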
